A study of Mus musculus with 11 samples.

Results

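The 9 genes described here mark the basal layer of the mammary epithelium: the keratins Krt5, Krt14, Krt15 and Krt17, the transcription factor Trp63, the cell adhesion molecule Cdh3, the integrin chains Itgb4 and Itga6, and the oxytocin receptor Oxtr. They were followed in fibroblasts sorted from mammary glands and mammary tumours, on Affymetrix gene arrays, as 9 of the 19938 genes that the arrays measure under a symbol of their own. Each gene was read from a probe set that carries its symbol and no other, and all 9 had 1 such probe set. The question was how the level of each gene differed between fibroblasts of the normal gland, of hyperplasia, of carcinoma and of advanced carcinoma.

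The mammary epithelium has an inner luminal layer, which makes milk, and an outer basal layer of myoepithelial cells, which rest on the basement membrane and contract around the ducts and alveoli when oxytocin is released. Basal cells build their intermediate filaments from the Krt5 and Krt14 pair, are maintained by the p63 protein that Trp63 encodes, and are fastened to laminin by hemidesmosomes, whose integrin is the α6β4 pair of Itga6 and Itgb4. Fibroblasts lie outside this layer in the stroma and are not known for keratin expression. Stratified skin epithelium uses much the same genes in its own basal layer.

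Normal fibroblasts came from mammary glands of female FVB/n mice aged 8 weeks (2 arrays, D2 and D5). The other groups came from female MMTV-PyMT mice, in which the MMTV promoter drives the polyoma middle T oncogene in the mammary epithelium: hyperplasia at 4 weeks (3 arrays, D6, D7 and D12), carcinoma at 9 weeks (3 arrays, D3, D4 and D10) and advanced carcinoma, called late carcinoma in the labels, at 12 weeks (3 arrays, D8, D9 and D11). Stage and age changed together, so their parts cannot be told apart, and the normal mice do not carry the transgene. Each array held RNA from a cohort of pooled mice, taken straight from fresh tissue without culture. The labels give the sorted population as CD140+ F4/80- EpCAM- cells, while the study's methods name the EpCAM gate for other sorts and not for the arrays. The carcinoma and advanced carcinoma arrays together are called cancer-associated fibroblasts (CAFs) here, 6 arrays, and were also set against the 5 arrays of normal gland and hyperplasia.

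All values are RMA-normalised log2 levels, on which a difference of 1 is a doubling, and array medians lay between 5.28 and 5.39. Fibroblast genes were high in every group: Dcn, a collagen-binding proteoglycan of fibroblasts, averaged 12.40 ± 0.19 in the 6 CAF arrays and 12.63 ± 0.068 in the 5 normal and hyperplasia arrays (means ± SD throughout). Pdgfra, which encodes the CD140a antigen of the sort, averaged 10.50 ± 0.66 in CAFs and 11.16 ± 0.22 in normal gland and hyperplasia arrays. Epcam, the antigen of the negative gate in the labels, averaged 9.33 ± 0.46 in CAFs and 7.17 ± 0.78 in normal and hyperplasia fibroblasts. For each probe set, D2 of the normal group and D11 of advanced carcinoma together equalled 2 times the mean of the other 9 arrays, with a largest gap of 0.000144, so that these arrays are not independent measurements. Where a term for both arrays changed a call of the 9 genes or a count of the other lists given here, this is said beside the result. No share of all genes is given for that term in the comparison of CAFs with normal and hyperplasia.

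Of the keratins, Krt5 and Krt14 were higher in CAFs, while Krt15 and Krt17 did not pass the test in any of the 7 comparisons. Differences between keratins were not tested. The level of Krt5, the type II keratin of basal cells, was 6.72 and 6.99 in the normal arrays D2 and D5. It was 5.24, 5.38 and 5.99 in the hyperplasia arrays D6, D7 and D12. It was 7.25, 8.60 and 6.88 in the carcinoma arrays D3, D4 and D10, and 7.75, 8.11 and 7.11 in the advanced carcinoma arrays D8, D9 and D11. The hyperplasia arrays lay below all others, and carcinoma array D10 was lower than normal array D5, so CAFs overlapped with the pooled normal and hyperplasia arrays. Krt5 averaged 7.62 ± 0.66 in CAFs and 6.07 ± 0.78 in normal and hyperplasia fibroblasts, a 2.93-fold difference (1.55 on the log2 scale, SE 0.39, limma adjusted p = 0.0156).

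Krt14, the type I partner of Krt5, followed nearly the same course. Its level was 6.09 and 6.23 in the normal arrays and 4.79, 5.03 and 5.37 in the hyperplasia arrays. It was 6.17, 7.69 and 6.35 in the carcinoma arrays and 7.0, 7.28 and 6.34 in the advanced carcinoma arrays. Hyperplasia was again lowest without overlap, and carcinoma array D3 fell between the normal arrays. Krt14 averaged 6.81 ± 0.61 in CAFs and 5.50 ± 0.63 in normal and hyperplasia fibroblasts, a 2.47-fold difference (1.31 on the log2 scale, SE 0.34, limma adjusted p = 0.0179). Over the 11 arrays, Pearson's r of Krt5 with Krt14 was 0.99, a description over arrays that share their stages.

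The stretches of 150 bases before the start of Krt5, Krt14 and Oxtr are shown. They are the 3 of the 9 genes that the RefSeq sequences (GRCm38.p6) used here matched. AP-2 factors are known regulators of basal keratin genes. Capitals mark matches to the AP-2 type motif GCCNNNGGG in Krt5 and Krt14 and to the GC box GGGCGG in Oxtr, each searched on both strands. The Krt5 stretch is chr15:101712906-101713055, that of Krt14 is chr11:100206031-100206180 and that of Oxtr is chr6:112489826-112489975, all on the minus strand and written 5′ to 3′ along the gene.
Krt5: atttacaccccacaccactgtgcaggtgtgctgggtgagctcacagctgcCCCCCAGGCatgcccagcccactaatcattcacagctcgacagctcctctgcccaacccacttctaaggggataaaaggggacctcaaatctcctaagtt
Krt14: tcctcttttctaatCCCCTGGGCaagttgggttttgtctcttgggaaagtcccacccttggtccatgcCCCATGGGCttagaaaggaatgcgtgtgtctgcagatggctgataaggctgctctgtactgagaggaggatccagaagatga
Oxtr: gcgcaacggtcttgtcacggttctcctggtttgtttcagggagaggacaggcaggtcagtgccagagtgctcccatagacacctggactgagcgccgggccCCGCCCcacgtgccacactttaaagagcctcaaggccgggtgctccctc

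The Krt5 stretch held 1 AP-2 type match and the Krt14 stretch held 2. Of 32851 RefSeq stretches of the same length, 16.5% hold this motif, so a match is common. The GC box was found in 28.6% of them. The motifs were chosen after the sequences were seen, and the matches describe letters only.

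Krt15, a type I keratin of resting basal cells, had a small range. Its level was 4.90 and 5.10 in the normal arrays, 4.33, 4.48 and 4.31 in the hyperplasia arrays, 4.54, 5.27 and 4.24 in the carcinoma arrays and 4.69, 4.57 and 4.33 in the advanced carcinoma arrays. Carcinoma array D4 held the highest value and carcinoma array D10 the lowest. Krt15 averaged 4.61 ± 0.37 in CAFs and 4.62 ± 0.36 in normal and hyperplasia fibroblasts (difference -0.0148, 95% interval -0.45 to 0.42, limma adjusted p = 0.966).

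Krt17, a keratin of basal, appendage and wounded epithelium, was 5.57 and 5.69 in the normal arrays and 4.51, 4.63 and 4.83 in the hyperplasia arrays. It was 5.31, 6.57 and 4.91 in the carcinoma arrays and 5.96, 6.41 and 5.28 in the advanced carcinoma arrays. The hyperplasia arrays were below all others, while both carcinoma stages had arrays above and below the normal ones. The CAF difference was 0.70 (95% interval -0.0515 to 1.44, limma adjusted p = 0.157).

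Trp63, the master regulator of basal identity, was 5.50 and 5.48 in the normal arrays and 5.13, 5.16 and 5.16 in the hyperplasia arrays. It was 5.92, 6.43 and 5.64 in the carcinoma arrays and 5.93, 6.0 and 5.80 in the advanced carcinoma arrays. Each of the 6 CAF arrays was above each of the 5 normal and hyperplasia arrays. Trp63 averaged 5.95 ± 0.26 in CAFs and 5.29 ± 0.19 in normal and hyperplasia fibroblasts, a 1.59-fold difference (0.67 on the log2 scale, SE 0.13, limma adjusted p = 0.00474).

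Cdh3 encodes P-cadherin, which joins basal cells to each other. Its level was 4.98 and 4.96 in the normal arrays, 4.33, 4.57 and 4.71 in the hyperplasia arrays, 5.50, 5.74 and 5.47 in the carcinoma arrays and 5.29, 5.74 and 5.31 in the advanced carcinoma arrays. CAFs again lay wholly above the others, and carcinoma array D4 stood out less here than for the keratins. Cdh3 averaged 5.51 ± 0.20 in CAFs and 4.71 ± 0.27 in normal and hyperplasia fibroblasts, a 1.73-fold difference (0.79 on the log2 scale, SE 0.13, limma adjusted p = 0.00189).

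The integrin chains had the highest fold differences of the 9 genes in the CAF comparison. Itgb4, the chain that anchors keratin filaments through its long cytoplasmic tail, was 5.71 and 5.19 in the normal arrays and 4.71, 5.10 and 5.67 in the hyperplasia arrays. It was 6.81, 8.04 and 6.63 in the carcinoma arrays and 7.60, 7.92 and 7.10 in the advanced carcinoma arrays. Normal and hyperplasia arrays overlapped with each other and CAFs were clear of both. Itgb4 averaged 7.35 ± 0.59 in CAFs and 5.27 ± 0.42 in normal and hyperplasia fibroblasts, a 4.22-fold difference (2.08 on the log2 scale, SE 0.29, limma adjusted p = 0.000736).

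Itga6, which pairs with Itgb4 and also with the β1 chain, was 8.07 and 7.08 in the normal arrays and 6.66, 7.33 and 8.02 in the hyperplasia arrays. It was 9.04, 9.86 and 8.59 in the carcinoma arrays and 9.50, 9.53 and 8.72 in the advanced carcinoma arrays. Itga6 averaged 9.21 ± 0.50 in CAFs and 7.43 ± 0.61 in normal and hyperplasia fibroblasts, a 3.43-fold difference (1.78 on the log2 scale, SE 0.30, limma adjusted p = 0.00225). No CAF array overlapped with the others. Neither chain is confined to basal epithelium: endothelial cells also make Itga6, and Schwann cells make both.

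Oxtr, the receptor through which oxytocin makes myoepithelial cells contract, had its highest levels in the normal gland. It was 6.39 and 6.63 in the normal arrays and 5.18, 5.59 and 5.41 in the hyperplasia arrays. It was 5.52, 5.94 and 5.11 in the carcinoma arrays and 5.45, 5.62 and 4.82 in the advanced carcinoma arrays. Both normal arrays lay above the 9 arrays of the transgenic mice, and those 3 stages overlapped. In the CAF comparison, which pools normal with hyperplasia arrays, Oxtr averaged 5.41 ± 0.39 in CAFs and 5.84 ± 0.64 in normal and hyperplasia fibroblasts (difference -0.43, 95% interval -1.05 to 0.19, limma adjusted p = 0.286).

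**Figure D1:**
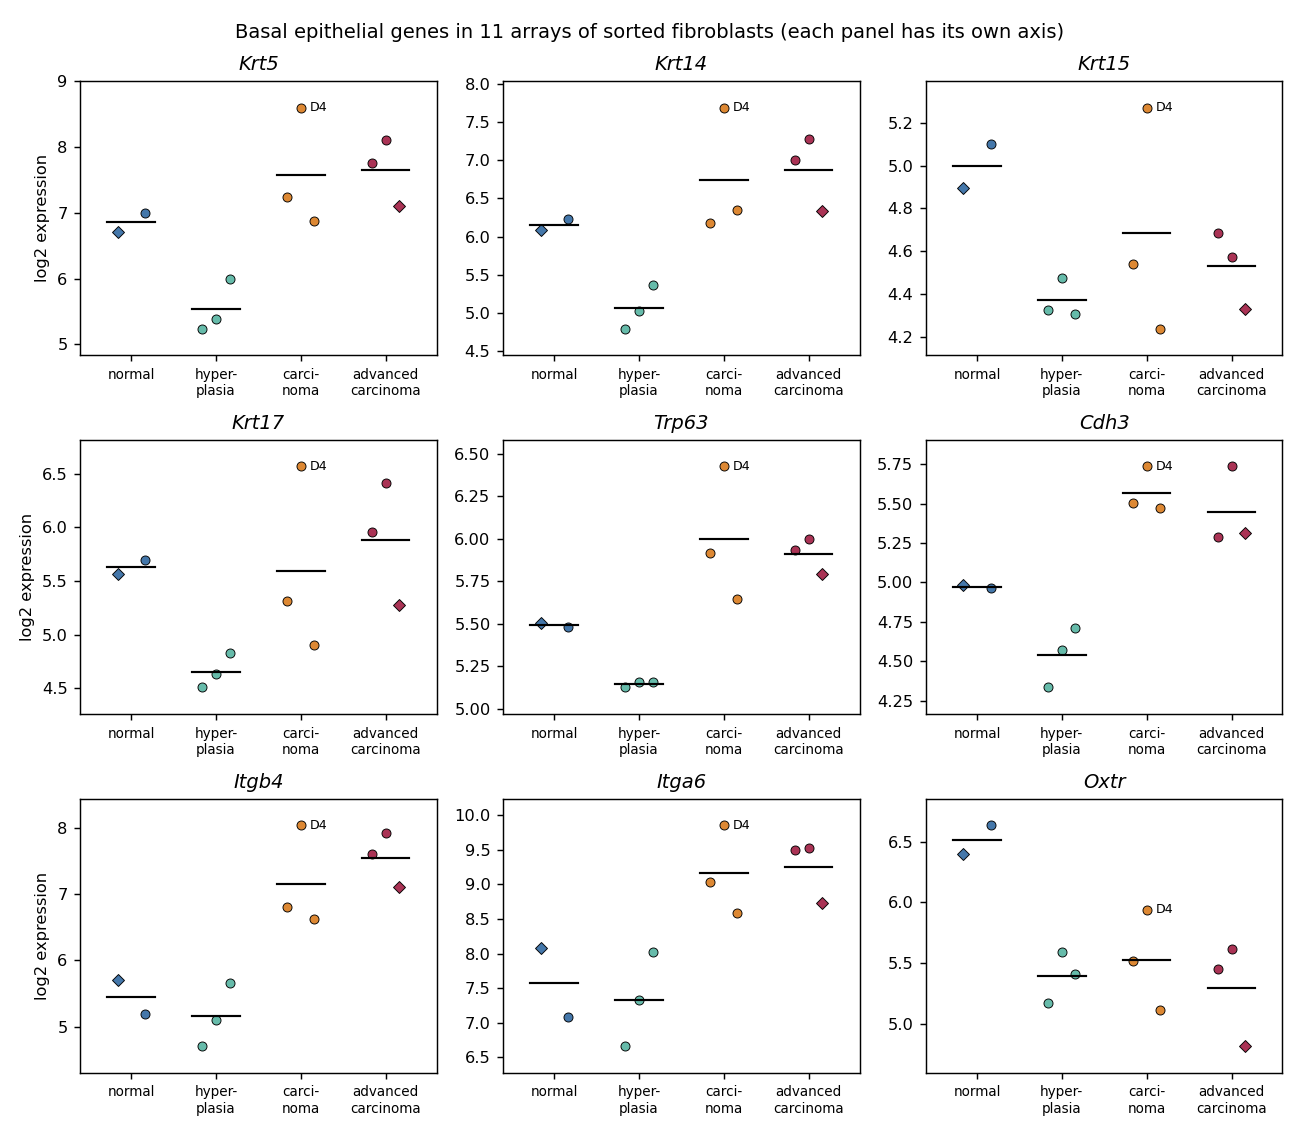
Normalised log2 expression (vertical axis, own scale in each panel) of the 9 basal epithelial genes in each array by stage; points are arrays, bars are stage means, and diamonds are normal D2 and advanced carcinoma D11, whose values are tied to those of the other arrays. Hyperplasia has the lowest stage mean for 8 of the 9 genes, and carcinoma array D4 is the highest array for 8.

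Against normal and hyperplasia fibroblasts, CAFs thus had 6 of the 9 genes higher and 0 lower, in a comparison where 12% of all genes were higher and 12.8% lower at the same threshold (limma, adjusted p under 0.05). The members' median change was 0.79, beside a median of -0.0376 over all genes. For 4 genes, Trp63, Cdh3, Itgb4 and Itga6, all CAF arrays were above all other arrays, a pattern found in 7.77% of all genes. The same 6 genes passed in 20 of 21 alternative settings, and in the remaining one, which drops genes below the median level, Cdh3 was not tested. Among those 20 was a plain analysis of variance of these 2 groups, with p adjusted in the same way.

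Comparison of single stages separated these genes further. Advanced carcinoma differed from the normal gland in 2 of the 9, 1 in each direction, where 3.9% of all genes were higher and 1.71% lower. Itgb4 averaged 7.54 ± 0.41 in advanced carcinoma and 5.45 ± 0.37 in the normal gland, a 4.27-fold difference (2.09 on the log2 scale, SE 0.44, limma adjusted p = 0.0334). Oxtr averaged 5.29 ± 0.42 in advanced carcinoma and 6.51 ± 0.17 in the normal gland (-1.22 on the log2 scale, SE 0.28, limma adjusted p = 0.0402), 2.33-fold lower. With a term for arrays D2 and D11, the adjusted p was 0.0668 for Itgb4 and 0.0395 for Oxtr in limma, so that 1 of the 9 was called, lower, where 1.62% of all genes were higher and 0.717% lower. Calls in this comparison ranged from 0 to 5 of the 9 when 1 array of a transgenic stage was left out. The count was 0 without D7, D8 or D9, 1 without D3, D6, D11 or D12, 2 without D10 and 5 without D4. No share of all genes is given here for fits that leave arrays out. Leaving out D2 or D5, or both D2 and D11, leaves 1 normal array, so calls are not counted there. Without both D2 and D11, the change was 2.57 for Itgb4 and -1.10 for Oxtr.

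The other 7 genes did not pass between advanced carcinoma and normal, and the keratins in particular had small differences for their error. The change was 0.80 for Krt5 (95% interval -0.29 to 1.89) and 0.72 for Krt14 (-0.26 to 1.70). It was 0.26 for Krt17 and -0.47 for Krt15. Trp63 changed by 0.42, Cdh3 by 0.47 and Itga6 by 1.68 (limma adjusted p = 0.216, 0.118 and 0.0852). All 3 advanced carcinoma arrays were above both normal arrays for 6 genes and below them for 2, Krt15 and Oxtr, patterns that 21.5% and 26.5% of all genes had with so few arrays.

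Between carcinoma and normal fibroblasts, 0 of the 9 genes passed in limma, where 0.938% of all genes did in either direction. At an unadjusted p under 0.05 there were 5 of the 9 in limma, as were 3595 of all genes, and 5 of the 9 with the methods' analysis of variance contrasts, which called 0 after adjustment. At an unadjusted limma p under 0.05 with the study's fold above 1.5, 3 were higher, where 4.53% of all genes were. At these cuts 1 was lower, where 2.44% were. The changes were 1.71 for Itgb4, 1.59 for Itga6, 0.60 for Cdh3 and -0.99 for Oxtr (limma adjusted p = 0.105, 0.155, 0.108 and 0.123).

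Hyperplasia gave the lowest mean of the 4 stages for 8 of the 9 genes, all but Oxtr, whose lowest mean was in advanced carcinoma. Relative to normal fibroblasts all 9 changes were below 0, with a median of -0.63 beside 0.0133 over all genes. The changes were -1.32 for Krt5, -1.12 for Oxtr, -1.09 for Krt14, -0.97 for Krt17 and -0.63 for Krt15. They were -0.43 for Cdh3, -0.34 for Trp63, -0.29 for Itgb4 and -0.24 for Itga6. For 7 genes, all but the integrins, the 3 hyperplasia arrays lay below both normal arrays, as 7.8% of all genes did. No gene of the 9, and 0% of all genes, passed in limma, with adjusted p = 0.999 for each of the 9. At an unadjusted p under 0.05 there were 5 of the 9 in limma and 3 with the analysis of variance contrasts, and 841 of all genes in limma, where 997 would be expected by chance. At an unadjusted limma p under 0.05 with the study's fold above 1.5, 4 of the 9 were lower, where 0.682% of all genes were. These were Krt5, Krt14, Krt15 and Oxtr.

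Against hyperplasia, the 6 genes of the CAF comparison were higher in either carcinoma stage. These comparisons share the hyperplasia arrays, which are also part of the CAF comparison. In advanced carcinoma, where 8.52% of all genes were higher, the changes were 2.39 for Itgb4, 2.12 for Krt5, 1.92 for Itga6, 1.81 for Krt14, 0.91 for Cdh3 and 0.76 for Trp63 (limma adjusted p between 0.00581 and 0.0224). In carcinoma, where 4.89% of all genes were higher, they were 2.04 for Krt5, 2.0 for Itgb4, 1.83 for Itga6, 1.67 for Krt14, 1.03 for Cdh3 and 0.85 for Trp63 (limma adjusted p between 0.00876 and 0.0365). With the term for D2 and D11, Itga6 was not called in carcinoma (limma adjusted p = 0.0621), which left 5 genes, where 3.26% of all genes were higher. For 7 genes, these 6 and Krt17, all arrays of either stage were above all hyperplasia arrays, a pattern of 19.1% of all genes in advanced carcinoma and 12.4% in carcinoma. Krt17 did not pass (adjusted p = 0.0740 in advanced carcinoma and 0.168 in carcinoma, limma), but passed in advanced carcinoma without carcinoma array D4 (limma adjusted p = 0.00788). Krt15 and Oxtr overlapped with hyperplasia in both. Without hyperplasia array D6 or D7, 2 genes were called in advanced carcinoma and 1 in carcinoma, and 0 were called in carcinoma when these stages were fitted alone. Without advanced carcinoma array D8 or D9, 2 were called in advanced carcinoma, and without both D2 and D11 there were 5, with Trp63 not passing (limma adjusted p = 0.0508).

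The carcinoma stages overlapped for all 9 genes, and 0 of the 9 and 0% of all genes differed between them in limma. None of the 9 had an unadjusted p under 0.05 in limma or with the analysis of variance contrasts, while 1124 of all genes did in limma. The change in advanced carcinoma relative to carcinoma was 0.38 for Itgb4 (95% interval -0.52 to 1.28), 0.0808 for Krt5 (-0.90 to 1.06) and -0.23 for Oxtr (-0.79 to 0.33). With 3 arrays in each stage, these intervals leave room for a doubling of Krt5 and of Itgb4.

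**Figure D2:**
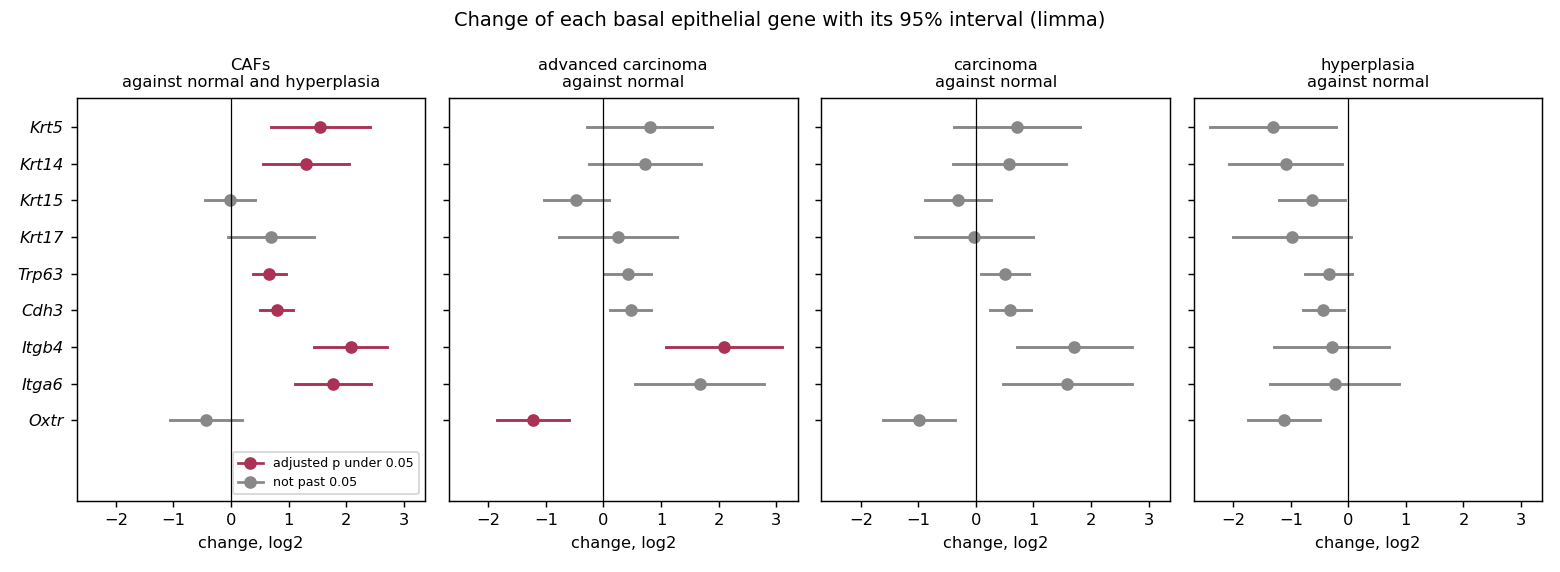
Change of each basal epithelial gene (horizontal axis, log2, with 95% interval) for CAFs against normal and hyperplasia fibroblasts and for each transgenic stage against the normal gland. Coloured points passed an adjusted p of 0.05 in limma: 6 genes in the first panel, Itgb4 and Oxtr in advanced carcinoma, and none in carcinoma or hyperplasia.

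Within a stage, the same arrays stood high or low for most of these genes. Carcinoma array D4 had the highest carcinoma level for all 9 genes and the highest level of all 11 arrays for 8. It exceeded the mean of the other carcinoma arrays by 1.54 for Krt5, 1.46 for Krt17, 1.43 for Krt14, 1.32 for Itgb4 and 1.04 for Itga6, and by 0.25 for Cdh3. D9 was the highest advanced carcinoma array for 8 genes and D11, one of the tied arrays, the lowest for 8. Without D4, the CAF difference was 1.94 for Itgb4, 1.65 for Itga6, 1.35 for Krt5, 1.13 for Krt14, 0.75 for Cdh3 and 0.57 for Trp63, and each still passed.

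Among the 9 genes other than Krt15 and Oxtr, Pearson's r over the 11 arrays ran from 0.737 (Krt17 with Itga6) to 0.99 (Krt5 with Krt14). It was 0.905 for Krt5 with Itgb4. Pearson's r was 0.978 for Itgb4 with Itga6, 0.958 for Krt5 with Trp63, 0.931 for Krt5 with Krt17 and 0.827 for Krt15 with Oxtr, while that of Oxtr with Itgb4 was -0.19. These values describe 11 arrays that share stages and tied values. Of 9642 named genes above the median level, those most like Krt5 were Eml2, Ptpn3 and Csrp1 (r = 0.98 to 0.983), and those most like Krt14 were Ptpn3, Dsp and Eml2 (0.978 to 0.979). Wwc1, Dsg2 and Marveld3 were most like Itgb4 (0.995 to 0.996), Stxbp2, Pik3cb and Crybg1 most like Itga6 (0.995 to 0.997), and Dusp16, Enpp5 and Txnl4a most like Trp63 (0.983 to 0.986). Ahr, Gle1 and Cited2 were nearest to Cdh3 (0.97 to 0.971), Sik1, Lama5 and Ubxn1 to Krt17 (0.944 to 0.959), Arg2, Cdo1 and Tlcd4 to Oxtr (0.906 to 0.927), and Zfp704, Phip and Prkx to Krt15 (0.884 to 0.922).

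Other genes of the basal layer moved less uniformly. Of 7 measured hemidesmosome and laminin-332 genes, 1 was higher in CAFs and 0 lower, where 12% and 12.8% of all genes were. Their median change was 0.23. The gene called was Lamb3, a chain of the laminin that α6β4 binds. Its level was 6.26, 7.19 and 6.10 in the carcinoma arrays and 6.74, 6.89 and 6.30 in the advanced carcinoma arrays, against 5.37 and 4.91 in the normal and 4.67, 4.89 and 4.87 in the hyperplasia arrays. CAFs lay wholly above (1.64 on the log2 scale, SE 0.20, limma adjusted p = 0.000407). Lama5, a laminin chain of most basement membranes, changed by 0.64 (adjusted p = 0.163), and Col17a1, the transmembrane collagen of hemidesmosomes, by 0.24.

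Of 12 other genes typical of basal keratinocytes, 4 were higher and 1 lower in CAFs, where 12% and 12.8% of all genes were. Their median change was 0.17. Serpinb5 (maspin) averaged 8.32 ± 0.57 in CAFs and 6.03 ± 0.63 in normal and hyperplasia fibroblasts (2.29 on the log2 scale, limma adjusted p = 0.000879). Perp, a desmosome protein and p63 target, changed by 1.99, Sfn, a cell cycle regulator of keratinocytes, by 1.16 and Lgals7 by 0.80. Ngfr, a receptor of myoepithelial cells that is also on the list of Schwann cell genes, was the one that fell (-1.49, limma adjusted p = 0.0115). With the term for D2 and D11, 3 of these genes were higher and 1 lower.

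Of 8 contractile genes of myoepithelial cells, 0 were higher and 1 lower in CAFs, with a median change of -0.19, where 12.8% of all genes were lower. Myh11, the smooth muscle myosin heavy chain, was 6.18, 6.78 and 5.49 in the carcinoma arrays and 5.51, 5.57 and 5.01 in the advanced carcinoma arrays, against 7.44 and 7.12 in the normal and 6.11, 6.49 and 6.79 in the hyperplasia arrays. It fell by 1.03 on the log2 scale in CAFs (SE 0.32, limma adjusted p = 0.0364), a call that was lost with the term for D2 and D11, after which 0 of the 8 were called. In advanced carcinoma against normal, 3 of the 8 fell and 0 rose, where 1.71% of all genes were lower and 3.9% higher. Cnn1 (calponin) fell by 1.94, Myh11 by 1.91 and Synpo2 by 0.53 (limma adjusted p = 0.0183, 0.0205 and 0.0214), as Oxtr did. In hyperplasia relative to normal, 0 of the 8 were called, and their median change was -0.68, beside -0.63 for the 9 basal genes. The change was -1.38 for Cnn1, -0.82 for Myh11 and -0.80 for Acta2. The list of 15 luminal epithelial genes, described below, also had a median of -0.68 there, with 0 called. Smooth muscle around vessels also makes these contractile proteins. Acta2, smooth muscle actin, changed by 0.14 in CAFs and is made by myofibroblasts as well.

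**Figure D3:**
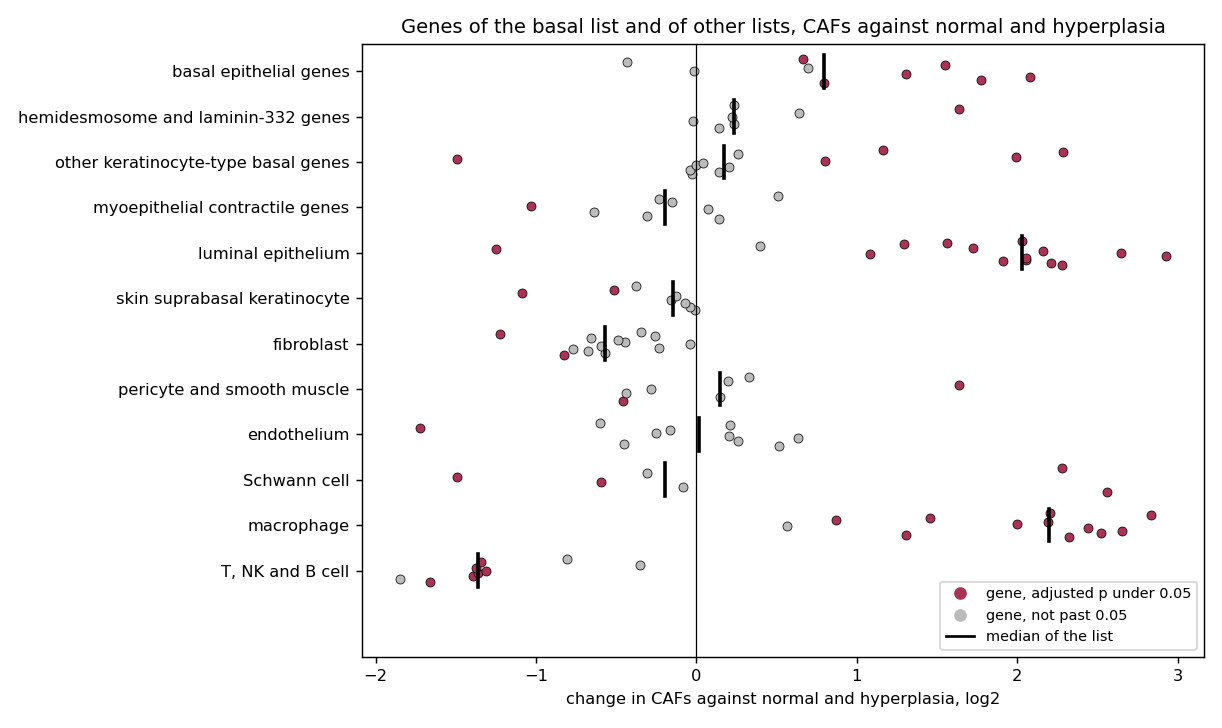
Change of single genes in CAFs against normal and hyperplasia fibroblasts (horizontal axis, log2) for the 9 basal genes and for 11 other gene lists (rows); coloured points passed an adjusted p of 0.05 in limma and bars are list medians. Basal genes have a median of 0.79, luminal genes 2.03 and macrophage genes 2.20, while the median is -0.19 for contractile genes and -0.57 for fibroblast genes.

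Of the markers of other cells, luminal and macrophage genes were mostly higher in CAFs, as the basal genes were. The remaining lists, given below, had as many or more genes lower than higher. Of 15 measured luminal epithelial genes, 13 were higher in CAFs and 1 lower, where 12% and 12.8% of all genes were. Their median change was 2.03. Ehf, an epithelial transcription factor, changed by 2.93 and Cldn3, a tight junction claudin, by 2.21 (limma adjusted p = 0.000351 for each). Foxa1, a factor of hormone-sensing luminal cells, fell by 1.25. Krt8, a luminal keratin, was 10.30, 10.96 and 10.005 in the carcinoma arrays and 10.72, 10.70 and 10.07 in the advanced carcinoma arrays, against 9.43 and 9.07 in the normal and 7.92, 8.62 and 9.42 in the hyperplasia arrays. Its partner Krt18 changed by 1.72, Krt8 by 1.57 and Epcam by 2.16, with CAFs above all other arrays for each of them. Since each array is a sum over its sorted cells, more cells of a type and more RNA per cell cannot be told apart for any of these genes, and the part of other cells in the basal levels was not tested.

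The mean level of the luminal list lay between 7.96 and 9.08 in CAFs and between 5.95 and 7.53 in normal and hyperplasia fibroblasts, and that of the 9 basal genes between 5.98 and 7.13 in CAFs and between 4.99 and 5.99 in the others. Carcinoma array D4 and advanced carcinoma arrays D8 and D9 had the highest means of both lists. The fibroblast list had 0 of 13 genes higher and 2 lower in CAFs, beside 12% and 12.8% of all genes with all arrays. Without D4, 8 of the 13 were lower, and no share of all genes is given for that fit. Its mean was 9.54 in D4, against 10.80 to 11.11 in the other CAF arrays and 11.00 to 11.38 in normal and hyperplasia fibroblasts. Pi16 and Cd34, markers of progenitor-like fibroblasts, fell by 1.23 and 0.82. Macrophage genes, 11 of 12 of which were higher, averaged 7.62 in D4, 7.87 in D8 and 8.04 in D9, and 6.28 in D3, 6.09 in D10 and 6.33 in D11, against 4.58 to 5.98 in normal and hyperplasia fibroblasts. Among them Cd14, an endotoxin co-receptor, changed by 2.44, C1qb, a complement chain, by 2.52 and Adgre1, which encodes F4/80, by 2.32.

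Genes of suprabasal skin keratinocytes, a check for skin, had 0 of 8 higher and 2 lower, where 12% and 12.8% of all genes were. Krtdap fell by 1.09 and Lor by 0.51. The list mean was 4.94 to 5.14 in CAFs and 5.08 to 5.59 in normal and hyperplasia fibroblasts. The same shares apply to the counts that follow without the term for D2 and D11. Endothelial genes had 0 of 10 higher and 1 lower, the receptor gene Tek, which fell by 1.72, with Vwf at -0.60 (limma adjusted p = 0.114). Pericyte and smooth muscle genes had 1 of 7 higher, Mcam by 1.64, and 1 lower, Abcc9 by -0.46, a call that was lost with the term for D2 and D11. Of 6 Schwann cell genes, Cdh19 and Sox10 were higher by 2.56 and 2.28, and Ngfr and Mbp lower. Sox10 is also made by some mammary epithelial cells. Lymphocyte genes had 0 of 9 higher and 6 lower, among them Cd79b and Cd8a with changes of -1.31 and -1.37, and 2 were lower with the term for D2 and D11.

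**Figure D4:**
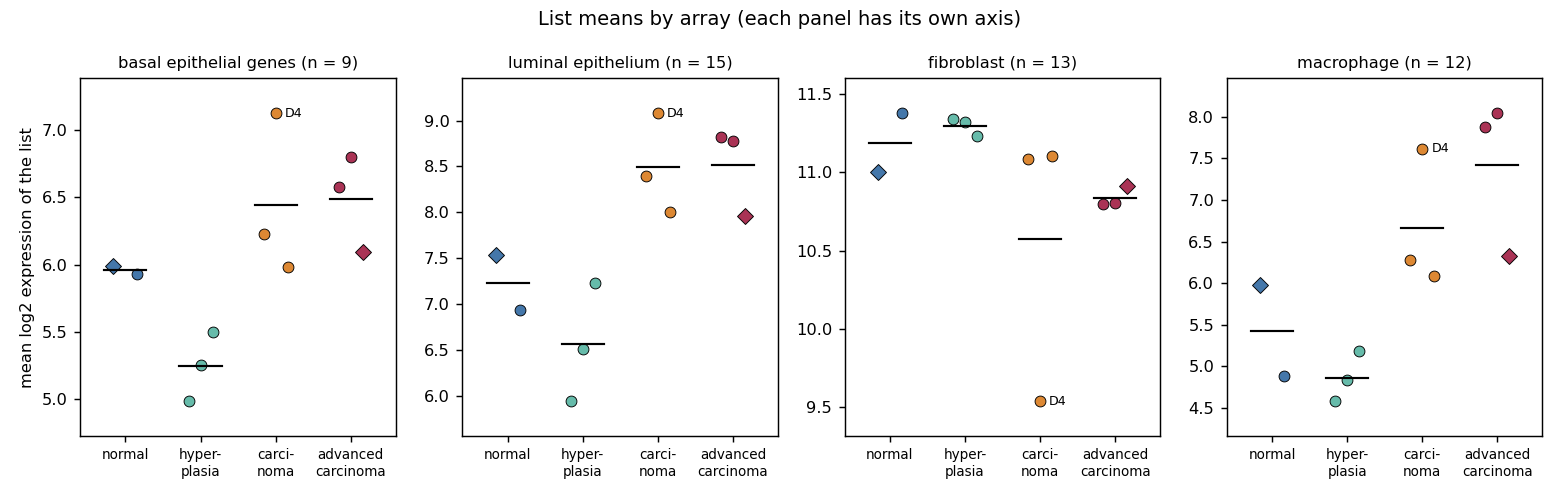
Mean log2 level of the basal, luminal, fibroblast and macrophage lists (vertical axis, own scale in each panel) in each array by stage; bars are stage means, diamonds are normal D2 and advanced carcinoma D11, and n is the number of measured genes. Carcinoma array D4 has the highest basal mean, 7.13, and the lowest fibroblast mean, 9.54.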

How the data were processed

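Expression was measured on 11 Affymetrix Mouse Gene 1.0 ST arrays. The authors normalised them by RMA in Partek Genomics Suite 6.5 and deposited log2 levels. The genome build is not given in the sources used here, and the values carry no detection call. Of 35399 probe sets, 21789 had 1 symbol in GEO's platform annotation, 1621 several and 11989 none here. The brightest probe set of each symbol was kept (999 genes had several), which left 19938 genes.

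Differences were tested with limma 3.58.1 in R 4.3.3 on the deposited values: a fit of 4 stages for the 6 pairs of stages, and a fit of 2 groups for CAFs. P-values were adjusted by Benjamini-Hochberg over 19938 genes within each of 7 comparisons, at 0.05. The sources do not name a step that ties D2 to D11. Because the values fill 10 independent columns, error may be understated. The study's methods used analysis of variance with a fold above 1.5. Plain analysis of variance was run here as an alternative with adjusted p, by stage contrasts and, for CAFs, of the 2 groups. The study's p and fold cuts were applied to limma's unadjusted p. Other alternatives were array weights, a filter on dim genes and a term for D2 and D11. There were also a fit without these arrays, fits of 2 stages alone and fits leaving out each array.

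Named genes were the 9 members, the 2 genes of each other list with the smallest p, Pdgfra, Epcam, Adgre1, Krt8 and Krt18 as checks, and the 3 genes most correlated with each member. Dcn, Acta2, Col17a1, Foxa1, Mbp, Cnn1, Perp, Lgals7 and Ngfr were named after their values were seen. The members and lists were chosen with earlier results of these data known. Some genes of the lists are not reported here. Scripts were tested on simulated data. Promoter sequences came from RefSeq (GRCm38.p6).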

Additional observations from a re-analysis of the deposited data

How the results depend on the processing

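No paired analysis was possible because the groups share no replicate numbers. RMA values hold no background estimate, so a level near the bottom of the range cannot be called detected. This holds for Krt15, for Cdh3 in normal and hyperplasia arrays (4.33 to 4.98) and for Krt17 in hyperplasia (4.51 to 4.83). Other values also lay below the lowest array median of 5.28. They were Trp63 in hyperplasia (5.13 to 5.16), Krt14 in D6 and D7 (4.79 and 5.03) and Krt5 in D6 (5.24). They were also Itgb4 in D5, D6 and D7 (5.19, 4.71 and 5.10) and Krt17 in D10 (4.91). Oxtr was as low in D6, D10 and D11 (5.18, 5.11 and 4.82). Groups of 2 or 3 arrays limit the stage comparisons. The replicates are pooled cohorts, and nothing more is known of how cohorts were formed.

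For CAFs against normal and hyperplasia, 6 of the 9 genes were called with each array left out. No share of all genes is given for array weights, the filter on dim genes, fits of 2 stages or fits without arrays. Counts from these settings describe the 9 genes alone. Analysis of variance called 247 of all genes for advanced carcinoma against normal, 858 for carcinoma against hyperplasia and 1881 for advanced carcinoma against hyperplasia. For advanced carcinoma against normal, with 2 called, the count was 1 with the filter on dim genes and 0 with analysis of variance. It was 4 with array weights, 1 with the term for D2 and D11 and 4 with only these stages fitted. With 1 array of a transgenic stage left out it was 0 to 5. For carcinoma against normal, with 0 called, it was 4 at the study's p and fold cuts applied to limma's unadjusted p, and 2 with array weights. For hyperplasia against normal, with 0 called, it was 4 at these same limma cuts, where 0.682% of all genes were lower. For carcinoma against hyperplasia, with 6 called, it was 2 with analysis of variance, 3 without D2 and D11, 0 with only these stages fitted, and 1 to 6 with 1 array left out. For advanced carcinoma against hyperplasia, with 6 called, it was 5 with analysis of variance, with the filter on dim genes and without D2 and D11, 7 with array weights and with only these stages fitted, and 2 to 7 with 1 array left out.

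Changes of sign were seen only for differences that were not called. Without D2 and D11, Krt15 changed by 0.11 in CAFs, Itga6 by 0.26 in hyperplasia against normal, and Oxtr by 0.14 and 0.0101 in advanced carcinoma against hyperplasia and carcinoma. Oxtr changed by 0.0701 against hyperplasia with array weights and 0.0733 with the term. Array weights gave Krt15 0.0613 and Trp63 0.0524 in advanced carcinoma against carcinoma. With 1 array left out, Krt15 in CAFs ran from -0.15 to 0.11, Krt17 from -0.00915 to 0.56 in advanced carcinoma and -0.52 to 0.31 in carcinoma against normal, Itga6 from -0.74 to 0.26 in hyperplasia against normal, and Oxtr from -0.26 to 0.14 in advanced carcinoma and -0.0772 to 0.34 in carcinoma against hyperplasia. In advanced carcinoma against carcinoma, Krt5 ran from -0.27 to 0.59, Krt14 from -0.14 to 0.61, Krt15 from -0.38 to 0.14, Krt17 from -0.056 to 0.78, Trp63 from -0.26 to 0.13, Itga6 from -0.20 to 0.44 and Oxtr from -0.43 to 0.0101. Of the other values of single genes, 565 kept direction and side of the threshold, 21 lost it and 8 gained it over settings that keep all stages' arrays or drop both tied arrays, and 618, 45 and 4 did so with 1 array left out. The cause was not tested in any of these cases.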
